A study of Homo sapiens with 6 samples.

Results

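The cytosolic ribosomal protein genes were taken as the protein-coding genes of the GENCODE annotation of hg19 whose names are RPL or RPS followed by a number, with an optional final A, L, X or Y, together with RPLP0, RPLP1, RPLP2 and RPSA. The rule gave 81 of 19472 protein-coding genes, 49 named for the large subunit and 32 for the small subunit, and left out the RPS6K kinases and all pseudogenes. PAR-CLIP reads were examined in 6 libraries of HEK293 cells, a human embryonic kidney line, all grown with the photoreactive nucleoside 4-thiouridine (4SU), irradiated with long-wave UV and digested with RNase T1. The 3 FLAG-GFP libraries (G20, G35 and G45) came from gel slices at about 20, 35 and 45 kDa after FLAG immunoprecipitation of GFP, a protein that does not bind RNA, and measured the background of the method. The 2 HuR libraries came from FLAG immunoprecipitation of HuR, an RNA-binding protein that recognizes U-rich elements. The cells expressed GFP or HuR from a doxycycline-inducible transgene. The Total library was RNA of lysates treated the same way, without immunoprecipitation, digested with proteinase K and depleted of rRNA. The FLAG-GFP slices are different sizes of RNP and not repeats of 1 slice. The p-values below take their spread only from these slices and the 2 HuR libraries. Total is a single library with no spread of its own, and tests against it assume that it varies like the others.

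Ribosomal proteins join with ribosomal RNA to form the large and small subunits of the ribosome. Their mRNAs are among the most abundant of a growing cell, are short, and begin with a 5' terminal oligopyrimidine (TOP) tract through which mTOR signalling controls their translation. Their genes host many small nucleolar RNAs in introns, and the genome carries many processed pseudogenes copied from their mRNAs. HuR is known mainly for binding introns and 3'UTRs of other mRNAs. A crosslinked 4SU is often read as C during reverse transcription, so that T-to-C conversions are used as a mark of contact with protein. The study states that 4SU without a crosslink also converts, at a lower rate, so a conversion alone does not establish contact.

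Some of the member sites with the most reads are shown to let their base composition be compared between the background and HuR. Each sequence is the site or, for a site over 30 bases, its window of 30 bases with the most T, read 5' to 3' on the RNA strand from the deposited files (hg19), and T, the base that can convert, is in capitals. The first 4 sites lay in coding sequence, the next 3 in 3'UTRs and the last 2 in introns.
RPL19, coding, G20, chr17:37359282-37359311, plus strand: ggTcacaTggaTgaggagaaTgaggaTTTT
RPL11, coding, G35, chr1:24019169-24019198, plus strand: TTggggagagTggagacagacTgacgcgag
RPLP2, coding, G35, chr11:810310-810339, plus strand: aTcTTggacagcgTgggTaTcgaggcggac
RPL6, coding, Total, chr12:112843761-112843790, minus strand: TcaTTgccacTTcaaccaaaaTcgaTaTca
RPL15, 3'UTR, HuR replicate 2, chr3:23961360-23961389, plus strand: TggTTTaTTTTcaagTggcTgcgTTTTTTT
RPL37, 3'UTR, HuR replicate 2, chr5:40831763-40831792, minus strand: ggTTgggggTTTTTTTTgTTTTTTTaaaaT
RPS23, 3'UTR, HuR replicate 2, chr5:81571794-81571823, minus strand: accacccccccTTaTTTTTTTTaTccTaaa
RPL7A, intron, G45, chr9:136218004-136218022, plus strand: aagTTcTaTcTgacgaTca
RPS18, intron, Total, chr6:33241661-33241677, plus strand: ccTcgTcaTTTaaTTaa

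The RPL15, RPL37 and RPS23 windows held 17, 18 and 12 T in 30 bases, and the RPL11 and RPLP2 windows of G35 held 4 and 6. Windows not shown overlapped these. The RPL17 exon window of G45 held 12, and the RPS23 intron window of HuR replicate 1, its site of most reads, held 6. Taking the window with the most T favours long sites. The RPL15 and RPL37 sites had 215 and 90 bases, and the RPL11 and RPLP2 sites 57 and 48. Over all member exon sites, T made up 21.6%, 21.8% and 22.8% of bases in G20, G35 and G45, 31.1% and 30.3% in HuR replicates 1 and 2, and 24.96% in Total. Both HuR libraries thus lay above all 3 background slices. Over the exon sites of all protein-coding genes the same libraries held 19.2%, 24.8%, 25.8%, 33.5%, 34.0% and 24.9% T, so the order of HuR above background was not limited to the members.

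The libraries held 6187300 to 38644636 reads at 259337 to 4024972 sites, of which 2.04 to 12.3% lay in protein-coding exons. A single gene that is no member, HASPIN, held the most exon reads in every library, from 1.83% in HuR replicate 2 to 32.1% in G35, and shares of exon reads are therefore also given without it. The 7 genes fixed as marks of HEK293 all had exon reads in Total, from 4 for NEFM to 2268 for VIM. Of 6 marks of other cell types, 3 had none there, and the most was 41 for ALB.

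Ribosomal protein exons held a larger share of reads in G20 and Total than in the larger slices or HuR. They had 15039 exon reads in G20, 1250 in G35, 1324 in G45, 1090 in HuR replicate 1, 13078 in HuR replicate 2 and 68245 in Total. As a share of all exon reads this was 1.91% in G20 (95% exact binomial interval 1.88 to 1.94), 0.334% in G35 (0.316 to 0.353), 0.383% in G45 (0.363 to 0.404), 0.154% in HuR replicate 1 (0.145 to 0.163), 0.393% in HuR replicate 2 (0.386 to 0.400) and 1.55% in Total (1.54 to 1.56). These intervals cover counting error only, since the reads carry no molecular identifiers. The FLAG-GFP group averaged 0.876% ± 0.896 (SD, n = 3) and the HuR group 0.273% ± 0.169 (SD, n = 2), and the groups overlapped because HuR replicate 2 lay above G35 and G45. The share was 5.72 times higher in G20 than in G35 and 2.56 times higher in HuR replicate 2 than in replicate 1.

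The shares moved with how sites and genes were counted. With the 1 member site of most reads left out in each library they were 1.87% in G20, 0.324% in G35, 0.370% in G45, 0.151% and 0.369% in the HuR replicates and 1.29% in Total. With HASPIN left out, the shares were 1.97% in G20, 0.492% in G35, 0.466% in G45, 0.189% and 0.400% in the HuR replicates and 1.71% in Total. The FLAG-GFP and HuR groups then did not overlap, since both HuR libraries lay below every slice. With the site of most reads left out of every gene of the annotation, the shares were 1.54% in G20, 0.951% in G35, 0.939% in G45, 0.353% in HuR replicate 1, 0.394% in HuR replicate 2 and 0.886% in Total, and both HuR libraries then lay below all slices. When each site was counted once, G20 (0.419%) lay below G35 (0.724%) and G45 (0.726%). The higher share of G20 was thus one of reads per site and not of the number of sites.

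**Figure D1:**
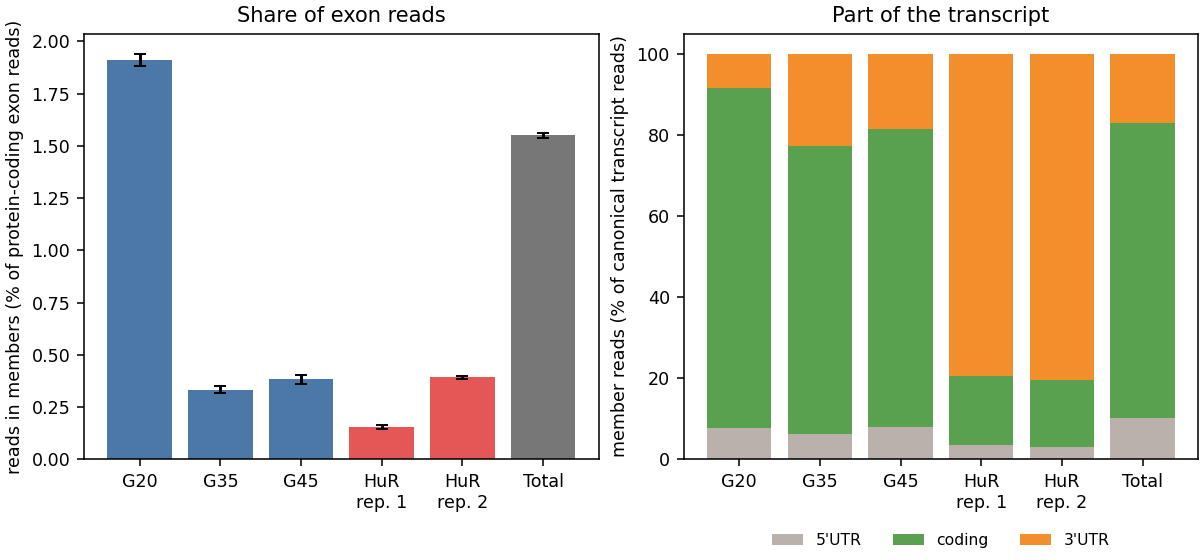
Left, reads in exons of the 81 ribosomal protein genes as a percentage of all protein-coding exon reads in each library, with 95% exact binomial intervals (blue, FLAG-GFP slices; red, HuR; grey, Total). Right, the percentage of member reads in each part of the canonical transcript. G20 (1.91%) and Total (1.55%) stand above the other libraries at left, and the HuR libraries are mostly 3'UTR at right while the others are mostly coding.

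The reads lay in different parts of the mRNA. In the canonical transcripts, coding sequence held 83.9% of member reads in G20 (83.3 to 84.5), 71.2% in G35 (68.3 to 73.9), 73.4% in G45 (70.7 to 76.0) and 72.7% in Total (72.3 to 73.0), but 17.0% in HuR replicate 1 (14.4 to 20.0) and 16.6% in HuR replicate 2 (15.9 to 17.4). The 3'UTR held 8.39%, 22.6%, 18.5% and 17.1% in G20, G35, G45 and Total, and 79.5% and 80.4% in the HuR replicates. Both HuR libraries thus lay apart from the other 4 in each part. Coding sequence makes up 37.7% of the members' summed canonical length and 3'UTR 58.0%, but the median lengths are 456 and 139 bases. Of the 3'UTR reads, 78.4% and 75.5% in the HuR replicates lay more than 200 bases past the coding sequence. In G20, G35, G45 and Total 62.5%, 75.5%, 56.9% and 63.6% did. For all protein-coding genes the coding share was 66.4%, 67.3%, 63.0% and 60.4% in G20, G35, G45 and Total, and 51.6% and 12.0% in the HuR replicates. By reads the HuR replicates thus lay further apart over all genes than over the members. HASPIN alone held 18.5% of exon reads in HuR replicate 1 and 1.83% in replicate 2, and the all-gene coding share is not given without it. Counted by site, the member coding share was 45.6%, 63.2%, 64.8%, 19.7%, 23.8% and 31.2% for the 3 slices by size, the HuR replicates and Total. For all protein-coding genes it was 61.4%, 54.3%, 55.2%, 24.8%, 23.9% and 49.9% by site. By site the HuR replicates thus lay closer together over all genes than over the members.

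Conversion separated the slices. In member coding sequence there were 8.21 T-to-C events per 100 reads in G20 (95% exact Poisson interval 7.69 to 8.75), 65.6 in G35 (59.9 to 71.7), 48.3 in G45 (43.6 to 53.3), 78.9 in HuR replicate 1 (63.95 to 96.2), 84.4 in HuR replicate 2 (80.0 to 89.1) and 6.16 in Total (5.93 to 6.39). G20 thus lay near Total, and G35 and G45 lay nearer to HuR. Over the coding sequence of all genes the values were 19.0, 36.2, 39.0, 17.5, 71.6 and 12.2, so members lay below all genes in G20 and Total and above them in the other 4 libraries. The all-gene values weigh every read and can follow a few genes. HASPIN alone held 32.1%, 17.7% and 18.5% of exon reads in G35, G45 and HuR replicate 1, and conversion was not computed without it. In member 3'UTRs the HuR replicates had 96.9 and 99.3 events per 100 reads.

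**Figure D2:**
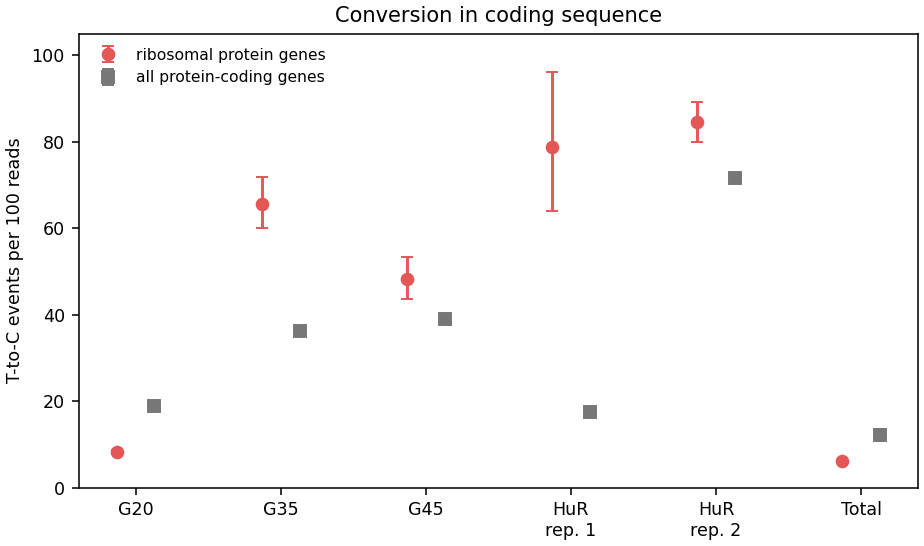
T-to-C conversion events per 100 reads in coding sequence for the 81 ribosomal protein genes (red circles) and all protein-coding genes (grey squares) in each library, with 95% exact Poisson intervals. Members lie at 8.21 in G20 and 6.16 in Total, and between 48.3 and 84.4 in the other 4 libraries.

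The levels of single members were compared as reads per 1000000 protein-coding exon reads (RPM) and per kb of exon, which sets long and short genes on 1 scale. Among the highest 5 members of G20 were RPLP2 (1529), a protein of the acidic stalk that binds elongation factors, RPL18 (997), RPS16 (850) and RPL8 (797). RPLP2 and RPL18 were also among the highest 5 in G35 (187 and 127) and in G45 (176.5 and 202). In Total the highest 5 included RPL6 (2403), RPS12 (1595), RPL18 (657) and RPL8 (536). In HuR replicate 1 they included RPS4X (33.5), RPS16 (22.4), RPL18 (19.7) and RPS23 (19.5), and in HuR replicate 2 RPS4X (90.1), RPS23 (74.2) and RPL18 (63.2). RPL18, a large subunit protein, was among the highest 5 of every library.

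The median member had 64.8 such reads per kb in G20, 13.8 in G35, 18.2 in G45, 6.81 and 12.8 in the HuR replicates and 39.1 in Total, against 2.78, 0.606, 1.48, 1.95, 1.47 and 2.93 for all protein-coding genes. The large subunit genes held 60.6 to 69.6% of member exon reads in all 6 libraries. The acidic stalk genes RPLP0, RPLP1 and RPLP2 held 9.96% of member reads in G20, 5.84% and 6.04% in the larger slices and 4.95% in Total, against 1.74% and 1.41% in the HuR replicates, so both HuR libraries were below the other 4.

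**Figure D3:**
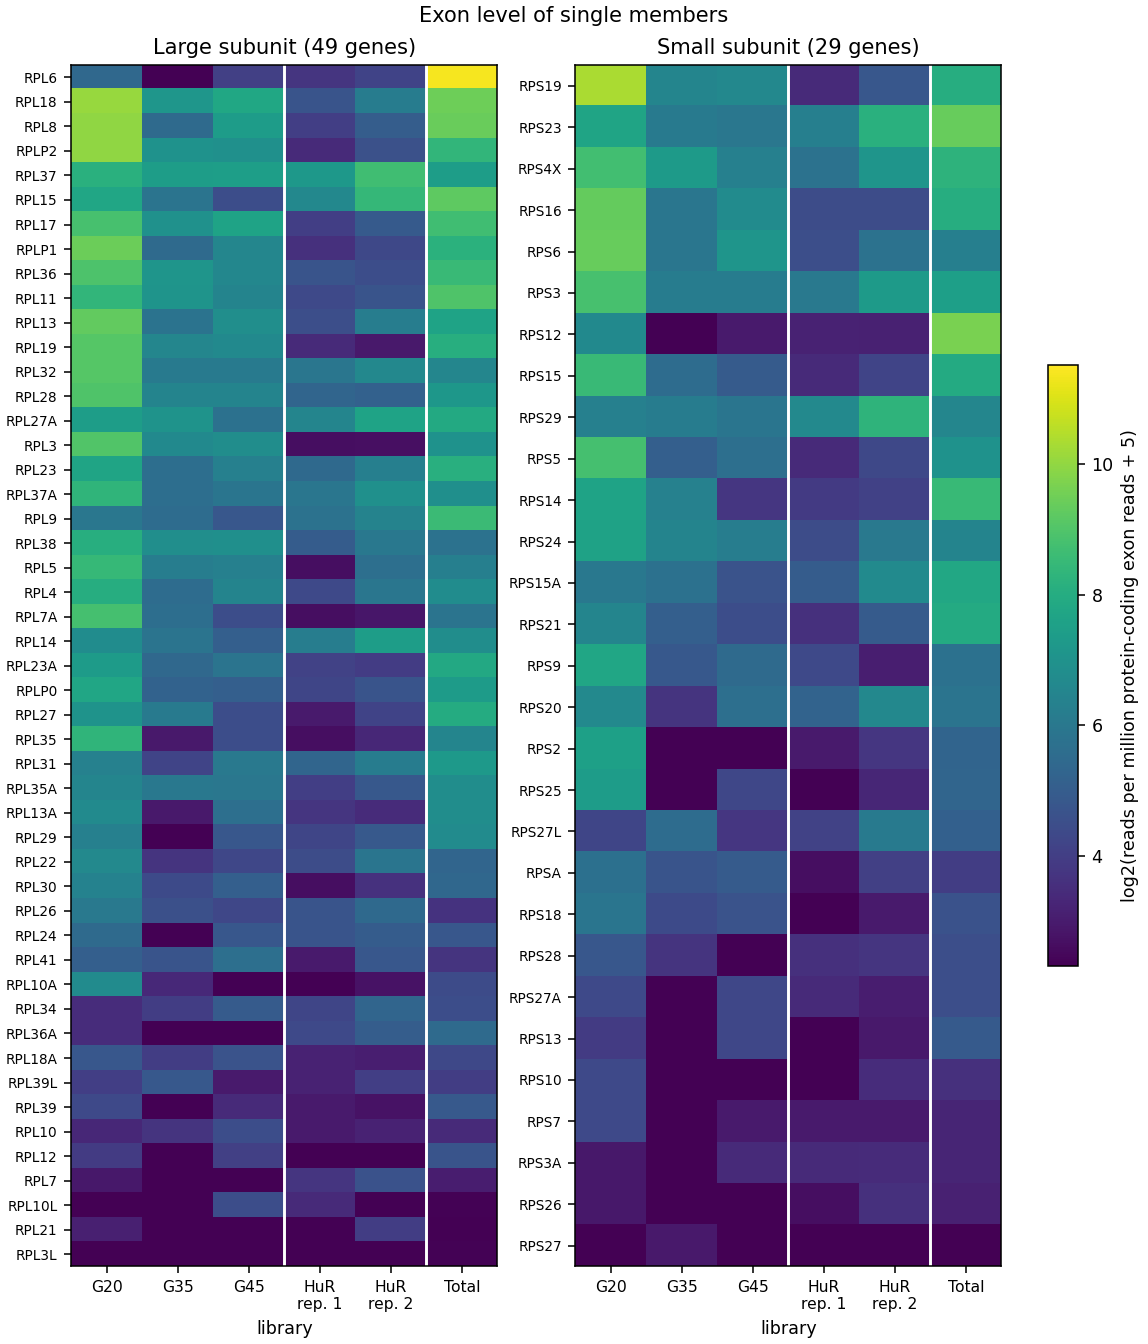
Exon level of 78 of the 81 genes in each library, as log2 of RPM plus 5, where RPM is reads per 1000000 protein-coding exon reads, large subunit at left and small subunit at right, each ordered by mean level. RPL6 and RPS12 are brightest in Total, and RPL3, RPL7A and RPL19 are dark in both HuR libraries.

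Of the 81 members, 57 had an exon read in every library. RPL21, a large subunit protein, had none in 4 of them. RPL3L, a paralog of RPL3 known from muscle, had 1 exon read, in Total, and RPL10L, a paralog of RPL10 known from testis, had 6 in G45, 4 in HuR replicate 1 and 1 in Total. The number of members with no exon read was 4 in G20, 20 in G35, 11 in G45, 10 in HuR replicate 1, 5 in HuR replicate 2 and 3 in Total. A count of 0 allows a level of up to 3 reads, which is 3.81 RPM in G20, 8.01 in G35, 8.68 in G45, 4.23 and 0.902 in the HuR replicates and 0.681 in Total.

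These levels are bounded by how much of each mRNA can be mapped. The deposited sites hold only reads that map to 1 place in the genome, and a median of 34.9% of the positions of a member's canonical transcript begin a 24-base word that occurs once in GRCh37. The median was 63.97% for 18 other mRNAs with a TOP tract, 86.0% for 78 mitochondrial ribosomal protein genes and 94.8% for 16 known HuR targets. RPL21 had 0%, RPS3A 0.591%, and 14 members were under 10%. RPS3A had 2 exon reads in G20, none in G35, 2 in G45, 4 and 20 in the HuR replicates and 21 in Total. Across the 81 members the Spearman correlation of the unique share with the exon level was 0.35 in G20, 0.52 in G35, 0.45 in G45, 0.75 and 0.64 in the HuR replicates and 0.37 in Total, given as a description over genes that share each library.

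**Figure D4:**
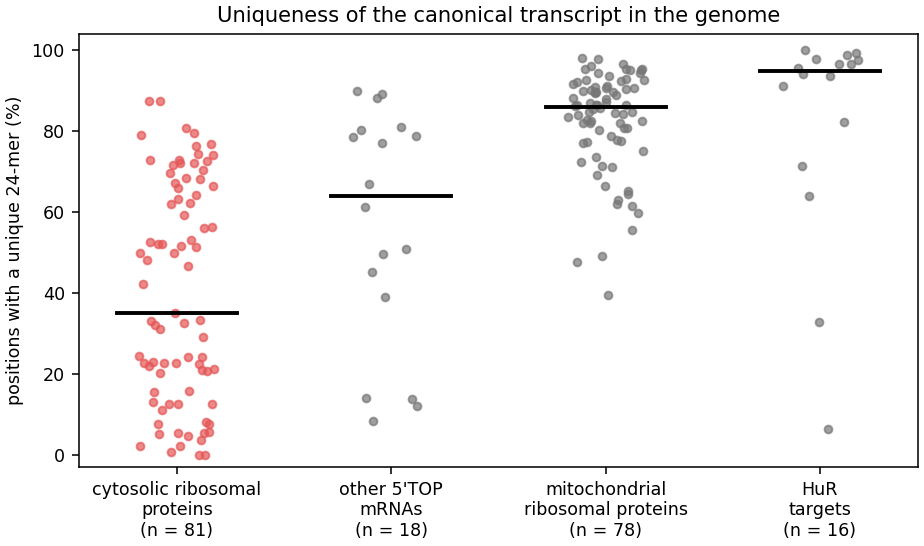
Percentage of canonical transcript positions that begin a 24-base word found once in the genome, 1 point a gene, with the median as a bar. Cytosolic ribosomal protein genes (red) have a median of 34.9%, the lowest of the 4 lists.

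The comparison of HuR with FLAG-GFP asks which mRNAs stand above the background of the method. With edgeR's quasi-likelihood test of exon reads, no member passed an adjusted p of 0.05 among the 74 that passed the filter on low counts, and 0% of the 11782 genes tested passed it. Members lay lower in HuR. At an unadjusted p under 0.05, 37 of 74 were lower, against 11.4% of all genes tested, and 1 was higher, against 11.0%. The median log2 difference was -2.01 over the members and -0.10 over all genes tested, and 60 of the 74 were below 0. With DESeq2 on the same reads, 24 of the 62 members with an adjusted p were lower, against 8.88% of all such genes, and none was higher. Both HuR libraries lay below all 3 slices in 30 members, against 16.2% of genes tested, and above all 3 in RPL7, RPL36A and RPS29, against 19.3%. The counts and medians cover the 74 members that passed the filter and leave out the other 7, among them RPL21, RPL3L, RPL10L and RPS3A, which had at most 49 exon reads over all libraries.

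The members named in this comparison follow from the highest levels, sites and introns, except RPL3 and RPS29, which were chosen after their values were seen. RPL3, a core protein near the peptidyl transferase centre, had 399, 36 and 37 exon reads in G20, G35 and G45, 1 and 5 in the HuR replicates, and 545 in Total. The HuR libraries were the lowest, without overlap. Its log2 difference was -7.28 (SE 1.10), with the smallest p of all genes tested in edgeR's quasi-likelihood test (1.1e-05, adjusted p = 0.0707).

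RPL19, a large subunit protein, had 421, 33 and 34 exon reads in the slices, 4 and 9 in HuR and 1160 in Total. Its log2 difference was -5.77 (SE 1.09, adjusted p = 0.0707 in edgeR). RPL7A, which carries snoRNAs in its introns, had 348, 17 and 6 reads in the slices, 1 and 8 in HuR and 234 in Total. Both genes had HuR libraries below every slice in RPM.

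RPLP2 had 790, 46 and 40 exon reads in the slices, 4 and 64 in HuR and 1412 in Total, with a log2 difference of -4.93 (SE 1.09, adjusted p = 0.0707 in edgeR). RPLP1, its partner in the stalk, had 541, 15 and 30 in the slices, 5 and 50 in HuR and 1262 in Total, with a log2 difference of -4.44 (SE 1.09, adjusted p = 0.0736 in edgeR). RPLP0, which anchors the stalk, had 167, 12, 10, 10, 70 and 707 exon reads for the 3 slices by size, the HuR replicates and Total, and a log2 difference of -2.24 (SE 0.88, adjusted p = 0.154 in edgeR). RPSA, a small subunit protein also known as a laminin receptor, had 37, 8, 9, 1, 39 and 48, and a log2 difference of -2.38 (SE 1.25, adjusted p = 0.273 in edgeR). All 4 had both HuR libraries below every slice in RPM.

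The differences of RPL15, RPS29 and RPL37 lay above 0 and did not pass the test. RPL15, a large subunit protein with a 3'UTR site of 800 reads in HuR replicate 2, had 167, 20 and 6 exon reads in the slices and 66 and 1141 in HuR, with a log2 difference of 1.18 (SE 0.82, adjusted p = 0.407 in edgeR). RPS29, a small zinc-binding subunit protein, had 59, 25 and 19 reads in the slices and 67 and 1038 in HuR, with a log2 difference of 1.42 (SE 0.66, adjusted p = 0.221 in edgeR). Its annotated exons cover 8206 bases, against 295 in its canonical transcript. Its coding sequence held 1, 0 and 0 reads in the slices, 0 and 0 in HuR and 8 in Total. RPL37 had 219, 62 and 59 in the slices and 103 and 1349 in HuR, with a log2 difference of 0.28 (SE 0.68, adjusted p = 0.833 in edgeR). In RPM, HuR replicate 2 lay above every slice in RPL15 (343), RPS29 (312) and RPL37 (405). HuR replicate 1 did so in RPS29 (94.5), but lay below G20 in RPL15 (93.1 against 212) and below every slice in RPL37 (145 against 166 to 278).

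**Figure D5:**
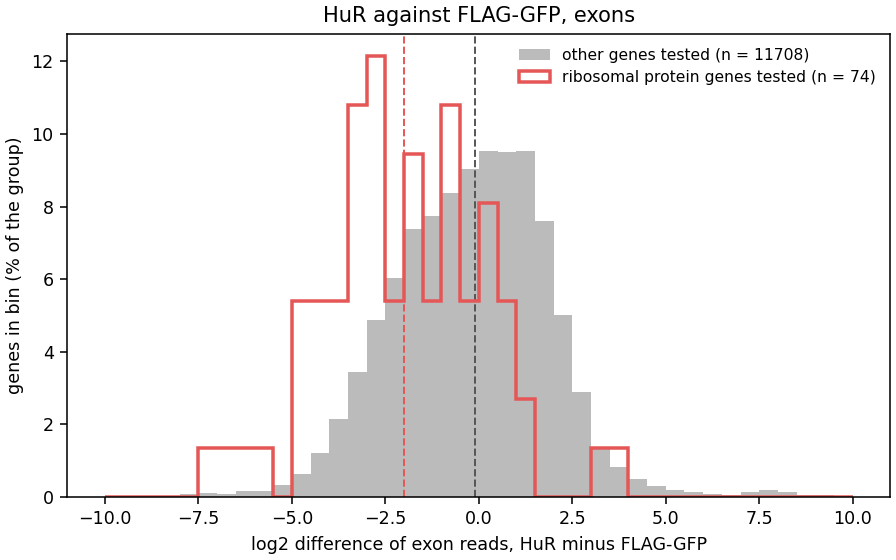
Distribution of the log2 difference of exon reads, HuR minus FLAG-GFP, from edgeR, for the 74 ribosomal protein genes tested (red line) and the other 11708 genes tested (grey), as a percentage of each group in bins of 0.5, with dashed lines at the medians. The members' median is -2.01.

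In coding sequence alone the test called 2 members lower, against 0.0646% of 9283 genes tested. The median log2 difference of exons was -2.21 in the 41 members with at most 50% unique positions and -1.97 in the 33 above it. The other TOP mRNAs had a median of -0.89 over 18, mitochondrial ribosomal proteins -0.26 over 75, and known HuR targets 0.28 over 16. At unadjusted p under 0.05, 7, 10 and 2 of these were lower and 2, 4 and 2 higher. The 5 tested paralogs and fusion genes outside the rule had a median of -0.95.

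The counts of calls moved with the processing. Leaving out G20, G35 or G45 gave no member called. With any of these or either HuR replicate left out, the members' median stayed below 0 (-2.23 to -1.50). The all-gene medians were then -0.10 to 0.33. Scaling to all reads without TMM moved the median of all genes to 1.27 and that of the members to -0.56, so that the members still lay below all genes, and 3 members were called lower and 2 higher. With each site counted once the medians were -0.64 over the members and -0.04 over all genes, and 6 members were called lower and 4 higher. The shares of all genes called under these settings are not given here, so the counts are not set against a general rate.

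HuR sites in member coding sequence mostly coincided with background sites. Of HuR sites in coding sequence, 74 of 79 in replicate 1 (93.7%, exact interval 85.8 to 97.9) and 150 of 171 in replicate 2 (87.7%, 81.8 to 92.2) overlapped a site of a FLAG-GFP slice by at least 1 base. In the 3'UTR, 109 of 305 (35.7%, 30.4 to 41.4) and 186 of 513 (36.3%, 32.1 to 40.6) did. In introns, 21.4% and 21.2% did. The overlap was thus higher in coding sequence than in 3'UTR in both replicates, with intervals that do not meet. The overlapping coding sites held 95.9% and 93.2% of HuR coding reads, and 43.7% and 58.1% of HuR 3'UTR reads were at overlapping sites. In Total 85.7% of coding and 38.2% of 3'UTR member sites overlapped a slice.

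Within the background, 12.2% of member exon sites of G20 overlapped a site in both other slices, 47.9% of those of G35 and 35.7% of those of G45. Among sites of at least 5 reads in each library the shares were 11.6%, 29.9% and 33.7%. The RPLP2 site on chr11 was found in all 3, with 333, 24 and 23 reads in the slices by size, and had 2 and 14 reads in HuR and 992 in Total. Its conversion events were 17, 19 and 18 in the slices, so G20 had many more reads with as many conversions.

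G20 was compared with the larger slices because it differed most in share. On the scale of log2 of RPM plus 5, the median member was 1.76 higher in G20 than the mean of G35 and G45, against 0.81 for all genes tested. The level was at least 2-fold higher in G20 in 56 of 74 members, against 43.7% of genes tested, and at least 2-fold lower in 1, against 9.65%. It was highest in G20 in 67 of 74 members, and in 61.8% of all genes tested. With each site counted once the members' median was -0.53, so the direction held for reads and not for sites. There is no replicate of a slice and no test.

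RPS19, a small subunit protein mutated in Diamond-Blackfan anaemia, had 1025 exon reads in G20 and 32 in each of G35 and G45. RPL8 had 795, 15 and 56. RPS12 had 77, 0 and 1. These members were higher in G20 by 3.80, 3.26 and 3.99 on the log2 scale.

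FLAG-GFP was compared with Total to ask whether background follows the RNA of the lysate. No member passed an adjusted p of 0.05 in edgeR, as did 0% of 11782 genes. At an unadjusted p under 0.05, 8 members were lower in FLAG-GFP, against 2.22% of genes tested, and 1 was higher (RPL38), against 2.80%. DESeq2 called 1 member lower and none higher. Over all 11782 genes tested it called 5 lower and 225 higher. It gave no adjusted p for 4 of the members and 686 of all genes. The median was 0.15 over members and -0.06 over all genes tested. The sign of the members' median was not stable, and the median of all genes moved too. Without G20 the medians were -0.77 over members and -0.34 over all genes, so members then lay lower. Without HuR replicate 1 they were -0.04 and -0.25, so members still lay above all genes. Total lay above every slice in 26 of 74 members, against 40.5% of genes tested, and below every slice in 6, against 9.06%.

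RPL6, a large subunit protein, had 30 exon reads in G20, none in G35, 4 in G45, 6 and 43 in HuR and 11606 in Total. A single coding site of 31 bases on chr12 held 11489 of the Total reads, or 16.8% of all member exon reads there, and had 13, 0 and 4 reads in the slices. Its log2 difference, FLAG-GFP minus Total, was -6.93 (SE 1.18), with the smallest p of all genes tested (adjusted p = 0.304 in edgeR). Without this site the members held 1.29% of exon reads in Total. RPS12 had 3500 of its 3532 Total exon reads in a single 5'UTR site of 40 bases, which had 2 reads in G20 and none in G35 or G45.

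HuR was compared with Total to set HuR reads against the RNA of the lysate. No member passed an adjusted p of 0.05 in edgeR, as did 0% of genes tested. At an unadjusted p under 0.05, 28 members were lower in HuR, against 6.84% of genes tested, and none was higher, against 3.56%. DESeq2 called 15 members lower and none higher. Over all 11782 genes tested it called 128 lower and 210 higher. It gave no adjusted p for 13 of the members and 3655 of all genes. The median was -1.83 over members and -0.06 over all genes tested. With each site counted once the direction turned: the median was 0.59 over the 54 members then tested and -0.05 over all genes, and edgeR called 4 members, all higher in HuR. Both HuR libraries lay below Total in 57 of 74 members, against 50.7% of genes tested. This comparison shares its HuR libraries with that against FLAG-GFP. RPL3 (-6.03, SE 1.14) and RPL6 (-7.52, SE 1.42) had the smallest p of all genes tested (adjusted p = 0.190 for both in edgeR).

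Introns of the members held 2138 reads in G20, 1219 in G35, 1618 in G45, 6601 and 28817 in the HuR replicates and 12133 in Total. Per exon read this was 0.142, 0.975, 1.22, 6.06, 2.20 and 0.178, so both HuR libraries lay above the other 4. For all protein-coding genes the ratios were 24.02, 4.80, 6.54, 4.60, 5.33 and 0.865, and HuR did not lie above the slices. Introns of the members gave 59.7 and 100.3 conversion events per 100 reads in HuR, and 30.2, 50.2 and 29.4 in the slices. With the intron site of most reads left out in each library they were 88.9 and 100.4 in HuR and 32.6, 88.4 and 56.8 in the slices, so G35 then lay beside HuR replicate 1.

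Some intron reads stood in single sites. In RPS23 a site on chr5 of 64 bases held 3291 of 6601 intron reads of HuR replicate 1 and overlapped 93 reads in replicate 2 and 47, 28 and 72 in the slices. Without that site the replicate had 3310 intron reads. In RPL24 a site on chr3 had 161, 527 and 781 reads in the slices by size, 82 and 288 in HuR and none in Total, with 1 conversion event in all libraries together. In RPS18 a site on chr6 had 1588 reads in Total with 1582 conversion events at 1 location, and 25, 4 and 1 reads in the slices. RPS24 and RPL37A had the next most intron reads in both groups of immunoprecipitations, with 2475 and 2670 in HuR replicate 2.

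In introns 2 of 76 members passed an adjusted p of 0.05 and were lower in HuR than in FLAG-GFP, against 3.65% of 13716 genes tested, and none was higher, against 0.744%. RPL24 had 167, 530 and 783 intron reads in the slices and 88 and 385 in HuR, with a log2 difference of -4.71 (SE 0.82, adjusted p = 0.00588 in edgeR). RPL7A had a log2 difference of -3.35 (SE 0.77, adjusted p = 0.0188 in edgeR), and its intron site on chr9 had 26, 45 and 76 reads in the slices and 21 and 13 in HuR. Without G35 or G45 no member was called. The median over the members was 0.05 with all libraries. It was 0.35 without HuR replicate 1 and -0.45 without HuR replicate 2, against -0.08 and -0.13 over all genes. Its sign thus depended on the HuR library used. A lone HuR library has no spread of its own, so calls are not given for those fits.

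Small RNA genes lay inside 30 members, 61 in all, and their sites were kept apart from introns. They held 28249 reads in G20, 1160 in G35, 1364 in G45, 132 and 1395 in the HuR replicates and 30058 in Total. This was 48.9%, 19.8%, 29.9%, 8.75%, 10.6% and 40.1% of the reads in small RNA genes inside all protein-coding genes. G20 and Total again lay above the other libraries. The RPL17 exon site with the most reads in G35 and G45, on chr18, lay in such a gene too and had 39 and 47 reads there.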

How the data were processed

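PAR-CLIP libraries of HEK293 cells (3 FLAG-GFP gel slices, 2 HuR and 1 Total) were used as deposited. According to the study's methods the authors trimmed adapters, aligned to hg19 with Bowtie and used PARalyzer to form groups (sites with any read) and clusters from uniquely mapped reads with T-to-C mismatches only. The deposited values are counts of reads, conversion locations and conversion events per site, not normalized. All 12730 sites within the members had the GRCh37 sequence at their stated position.

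Each site of the groups tables was assigned by its midpoint, on its strand, to exons or introns of protein-coding genes (GENCODE release 44 lifted to GRCh37). Exon reads assigned to more than 1 gene, 0.148 to 0.419% of the reads, were left out. Exon or intron counts were tested with edgeR 4.0.16 (TMM, filterByExpr, quasi-likelihood F test, all 6 libraries in 1 fit with 3 groups, Benjamini-Hochberg over all genes tested, threshold 0.05) in R 4.3.3, with DESeq2 1.42.0 as an alternative. SE is the log2 difference divided by the root of F. The fit was checked on simulated counts. It recovered 83 genes given a log2 change of 4, but only 18 of as many genes given a log2 change of 2. A lack of calls therefore does not show a lack of difference. Uniqueness was computed from 24-base words of the canonical transcript. Depth and counting intervals stand beside the values.

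Named genes were the 5 highest members per library, members called in a contrast, the 3 members with most intron reads per group, the 3 exon sites with most reads per library, members with no exon read, and RPLP0, RPLP1, RPLP2 and RPSA. Some genes that meet this rule are not reported here by name, and counts and medians over the members include them. The members and lists were chosen with earlier results of these data known. Alternatives were DESeq2, library scaling, the filter, the overlap rule, sites counted once, the top site left out, the clusters tables, other exon definitions and each library left out.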

Additional observations from a re-analysis of the deposited data

Results flagged for a closer look

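Reads on the strand opposite to member exons entered no comparison of the report. In HuR replicate 1 there were 121 such reads, or 11.1 per 100 sense exon reads, which is above the level of every control library: 0.0864 in G20, 1.12 in G35, 2.49 in G45 and 0.220 in Total. HuR replicate 2 had 248, or 1.90 per 100, within the range of the slices. The most such reads in HuR replicate 1 lay opposite to RPL8 (25) and RPL27 (19).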

How the results depend on the processing

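The call counts depended on the processing. No member was called in exons in the 3 contrasts as reported. DESeq2 called 24 (HuR against FLAG-GFP), 1 (FLAG-GFP against Total) and 15 (HuR against Total). Library sizes of all reads without TMM gave 5, 17 and 13, and 25 in introns, all higher there. All genes moved too under that setting. In introns the HuR against FLAG-GFP medians were 2.69 over all genes and 2.89 over the members. In exons the FLAG-GFP against Total medians were -2.28 and -2.12. No filter on low counts gave 16, 2 and 18, and 5 in introns. Coding sequence alone, added after seeing the data, gave 2, 1 and 2. Each site counted once gave 10 (6 lower and 4 higher) for HuR against FLAG-GFP, 4, all higher, for HuR against Total, and 9 in introns. Leaving out the site with the most reads of every gene gave 20 for HuR against FLAG-GFP, 7 for HuR against Total and 1 in introns. Leaving out 1 FLAG-GFP slice gave 0 in each of the 3 exon contrasts and 0 to 2 in introns. With a HuR replicate left out, the lone HuR library has no spread of its own, so calls are not given. Any overlap and canonical exons left the exon counts at 0. Where no share of all genes called stands above, these counts are not set against a general rate. The cause was not tested.

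Shares of exon reads are given for G20, G35, G45, HuR replicates 1 and 2 and Total. Counting each site once gave 0.419, 0.724, 0.726, 0.421, 0.470 and 0.315%. Leaving out the top site gave 1.54, 0.951, 0.939, 0.353, 0.394 and 0.886%. The clusters tables gave 3.87, 0.276, 0.236, 0.0369, 0.391 and 1.97%. Canonical exons gave 1.83, 0.290, 0.331, 0.110 and 0.307% in the first 5. Leaving out HASPIN, chosen after seeing the data, gave 1.97, 0.492, 0.466, 0.189, 0.400 and 1.71%. Any overlap gave 0.410% in HuR replicate 2. Leaving out sites in small RNA genes, also added later, gave 0.316% in G35 and 1.57% in Total.

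Conversion events per 100 exon reads of members were 9.56, 74.0, 47.3, 92.0, 99.0 and 7.29 in that order. Without the top site they were 11.0 in G20, 79.6 in G35, 42.8 in G45 and 9.54 in Total. At sites of exactly 1 read they were 26.99 in G20, 94.0 in HuR replicate 2 and 21.5 in Total. In the clusters tables they were 9.03, 89.7, 63.7, 79.5 and 96.6 in the first 5. The coding share of member reads was 45.6, 63.2, 64.8, 23.8 and 31.2% by site in G20, G35, G45, HuR replicate 2 and Total. Without the top site it was 89.1, 76.2, 81.3, 10.7, 12.4 and 70.5% over the 6. In the clusters tables it was 86.3% in G20, 85.8% in G45, 6.25 and 15.1% in HuR and 69.99% in Total. The coding share of both HuR libraries stayed below the other 4 under these 3 settings.

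The median log2 ratio of G20 over the larger slices was 1.76, and 2.13 with a pseudocount of 0.5, 2.23 over the 34 members with 10 or more reads in each slice, and -0.53, reversed, with each site counted once. No paired analysis was possible because the FLAG-GFP libraries carry gel slice sizes and no replicate number. Depth limits G35 and G45 most: 20 and 11 members had no exon read there.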
